A study of Mus musculus with 27 samples.

Results

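The genes described here are 45 genes of DNA replication and S phase, the part of the cell cycle in which the genome is copied, measured in alveolar macrophages sorted from mouse lungs during LPS injury. They were chosen by symbol from a list that covered origin licensing (10 genes), helicase activation (6), the sliding clamp and its loader (5), polymerases and primase (8), nucleotide supply (5), fork processing (4), S-phase entry (4) and chromatin copying (3). All 45 were found among the 38124 genes of the deposited count table, and all 45 were among the 13599 genes that passed the filter on low counts and were tested. The mice were of strain C57B/6, aged 8 to 14 weeks, and the treated animals received 20 ng of lipopolysaccharide (LPS), a bacterial cell wall component that inflames the lung, in 50 µL of phosphate-buffered saline into the trachea. Cells were washed from the airspaces and sorted by surface markers into resident alveolar macrophages (CD11c+CD11b-), which occupy the healthy lung, and recruited macrophages (CD11c-CD11b+), which enter the airspaces after injury. Resident cells were taken from untreated mice, which stand in the labels as day 0, and on days 3, 6, 9 and 12 after LPS, and recruited cells on days 3, 6, 9 and 12. Each of the 9 groups had 3 libraries, and no recruited cells came from untreated mice. Whether a group's libraries came from separate or pooled animals is not said in the labels, so the p-values below measure the spread between these samples. The labels also give no saline control, so an effect of the instillation itself cannot be told apart from that of LPS.

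Replication begins with licensing, in which the origin recognition complex, Cdc6 and Cdt1 load the ring of Mcm proteins onto DNA. Mcm10, Cdc45 and the GINS complex then turn the ring into an active helicase, primase and the DNA polymerases copy each strand, and the clamp Pcna, placed by replication factor C, tethers the polymerases to the template. Transcription factors of the E2F family, held back by retinoblastoma proteins until cyclin-dependent kinases release them, drive many of these genes together as cells enter S phase. Resident alveolar macrophages are known to renew themselves by division in the lung, whereas recruited macrophages descend from blood monocytes, which have largely stopped dividing. In sorted cells measured in bulk, fewer cells in S phase and less RNA of these genes per cell cannot be told apart.

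Because E2F factors bind TTTCCCGC, TTTCGCGC, TTTGCCGC and TTTGGCGC, the RefSeq start-site windows (GRCm38.p6, 250 bases before to 50 after the start) were searched for these words on both strands. At least 1 window was found for 36 of the 45 genes, a few of which had several, and 14 of those 36 (38.9%) held at least 1 of the words, against 704 of 27025 genes with a window (2.6%). The 14 were Orc1, Cdc6, Cdt1, Mcm3, Mcm5, Mcm6, Mcm7, Gins3, Rfc3, Pola1, Pole2, Pold1, Lig1 and Uhrf1. The word CCAAT, bound by NF-Y, was in a window of 21 of the 36 genes (58.3%) against 41.1% of all genes with one, and TTTGAA, the core of the cell cycle homology element of mitotic genes, was in windows of 5 (13.9%) against 20.2%. The comparison genes were all those with a window, whether or not tested here, and were not matched to the members for gene type or base composition. A match is a string of letters and was not tested for binding. Several of the words can overlap on opposite strands, as in the longer capital stretches below. The windows shown here are those of the 4 members with the most E2F matches, with ties settled by summed CPM. Rfc3, which also had 2 matches, was left out by that rule. All 4 are Mcm genes, whose products form most of the replicative helicase, and no window was found for Mcm4. Where a gene had several windows, the one with the most matches is shown, and capitals mark the E2F words on either strand.
Mcm6: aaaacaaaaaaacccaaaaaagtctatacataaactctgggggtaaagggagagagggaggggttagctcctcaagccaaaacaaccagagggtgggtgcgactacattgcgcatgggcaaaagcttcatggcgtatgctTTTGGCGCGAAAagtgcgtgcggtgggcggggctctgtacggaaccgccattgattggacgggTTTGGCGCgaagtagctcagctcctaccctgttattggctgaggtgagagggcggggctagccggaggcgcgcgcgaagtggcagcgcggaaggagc
Mcm3: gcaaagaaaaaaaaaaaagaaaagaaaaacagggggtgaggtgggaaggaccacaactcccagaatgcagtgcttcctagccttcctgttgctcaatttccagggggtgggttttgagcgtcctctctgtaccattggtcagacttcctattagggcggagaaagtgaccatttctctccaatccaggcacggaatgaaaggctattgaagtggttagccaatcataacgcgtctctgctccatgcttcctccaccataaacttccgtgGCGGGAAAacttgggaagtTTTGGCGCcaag
Mcm7: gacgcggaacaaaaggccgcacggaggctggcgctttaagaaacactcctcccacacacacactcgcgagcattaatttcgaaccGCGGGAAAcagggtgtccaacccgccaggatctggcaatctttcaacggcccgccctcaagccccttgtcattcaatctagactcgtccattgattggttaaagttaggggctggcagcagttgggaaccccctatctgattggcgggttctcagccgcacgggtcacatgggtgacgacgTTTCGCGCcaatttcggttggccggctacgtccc
Mcm5: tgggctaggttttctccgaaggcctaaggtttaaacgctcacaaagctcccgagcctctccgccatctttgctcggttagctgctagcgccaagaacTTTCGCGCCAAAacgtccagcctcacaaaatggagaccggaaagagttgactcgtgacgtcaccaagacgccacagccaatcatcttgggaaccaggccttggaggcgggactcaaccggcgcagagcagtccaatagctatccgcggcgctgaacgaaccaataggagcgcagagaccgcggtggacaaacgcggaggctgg
These windows lie at chr1:128359656-128359955 (Mcm6, minus strand), chr1:20820263-20820562 (Mcm3, minus strand), chr5:138171834-138172133 (Mcm7, minus strand) and chr8:75109259-75109558 (Mcm5, plus strand). The capital stretches began 110 and 47 bases before the start of Mcm6, 19 and 38 bases after that of Mcm3, 165 bases before and 16 after that of Mcm7, and 153 bases before that of Mcm5.

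The libraries held 11093216 to 18299674 counts (median 14859352), and levels are given as CPM, the usual scaling of a gene's reads to its library's total, here corrected by TMM factors. Medians over the 45 genes can be read against the median of all tested genes, which was between -0.00 and 0.05 in every comparison. Differences are log2 ratios ± SE from edgeR's quasi-likelihood test over all 13599 genes, and a gene is called where the Benjamini-Hochberg adjusted p is under 0.05. A second p inside the same parentheses is the one obtained with the named library left out, and is given where that library ends the call. Resident markers summed to 14080 to 31870 CPM in resident and 1740 to 9036 in recruited libraries, with the 3 highest recruited values, 7408, 9036 and 8447, in day 9 replicate 3 and day 12 replicates 2 and 3. Classical monocyte markers summed to 1200 to 11570 CPM in resident and 7423 to 22910 in recruited libraries, neutrophil markers to 116.2 to 243.9 and 291.9 to 1046. Within resident cells the monocyte markers summed to 1200 to 1965 CPM before injury and to 2691 to 3694, 8111 to 8452, 4437 to 11570 and 4495 to 10080 on days 3, 6, 9 and 12. Among the 8 monocyte genes, Ly6c2 had 0 to 69.52 CPM (median 0.8908) in resident and 18.54 to 1794 (median 214.5) in recruited libraries. Other genes of that list thus made up most of the resident sums. Among the 11 neutrophil genes, Ly6g had 0 to 0.1968 CPM in resident and 0 to 0.314 in recruited libraries, and S100a8 1.455 to 72.48 and 12 to 202. The part of cells with these markers in the differences below, the resident falls included, was not tested. Within groups, day 9 replicate 2 was the highest library for 39 of the 45 genes in resident cells, against 39% of all genes, and for 33 of 45 in recruited cells, against 39.4%. Untreated replicate 1 was likewise the highest of its group for 39 of 45, against 41.4% of all genes.

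Resident macrophages carried replication transcripts before injury, rose above that level on day 3, fell below it on day 6 and lay between these levels on day 12. On day 3 after LPS, 22 of the 45 genes rose and none fell (median log2 change 0.58), against 13.3% of all tested genes that rose, and all 45 estimates were positive. The 22 calls fell to 12, 13 and 14 without untreated replicate 3, untreated replicate 2 and resident day 3 replicate 3, and Mcm3, Gins1, Gins2, Rfc2, Pola2, Tyms, Fen1, Lig1, Rpa2 and Ccne1 were called in every alternative run. On day 6, 29 genes had fallen below the untreated level and none had risen (median -1.04), against 2.65% of all genes that fell. Without untreated replicate 1 the count was 17, and without resident day 6 replicate 2 it was 18. On day 9, 26 genes were below the untreated level (median -0.80), against 1.88% of all genes. That count became 9 without untreated replicate 1 and 11 without resident day 9 replicate 1 or 3, and Mcm7, Tyms and Tcf19 kept their call in every alternative. By day 12 only Tyms was called below the untreated level (median -0.51 over the 45 genes), against 0.206% of all genes. The call was lost without any of 5 libraries, as given under Tyms below, and DESeq2 called 4 genes. The 3 day 12 libraries lay below the 3 untreated libraries for 35 of the 45 genes, against 9.01% of all tested genes. These comparisons share the untreated libraries.

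The fall from day 3 to day 6, a comparison added after values had been seen, covered 44 of the 45 genes (median -1.59), against 13.3% of all genes, and 41 of the 44 were called in every alternative. Gins3, a subunit of GINS, was the exception, with 8.397, 7.34 and 6.57 CPM on day 3 and 5.42, 3.19 and 5.73 on day 6. From day 6 to day 12 all 45 estimates were positive (median 0.44). However, edgeR called none of the 45, against 0.0294% of all genes, and DESeq2 called 2. The mean of the resident groups was highest on day 3 for all 45 genes and lowest on day 6 for 34 and on day 9 for 11.

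**Figure D1:**
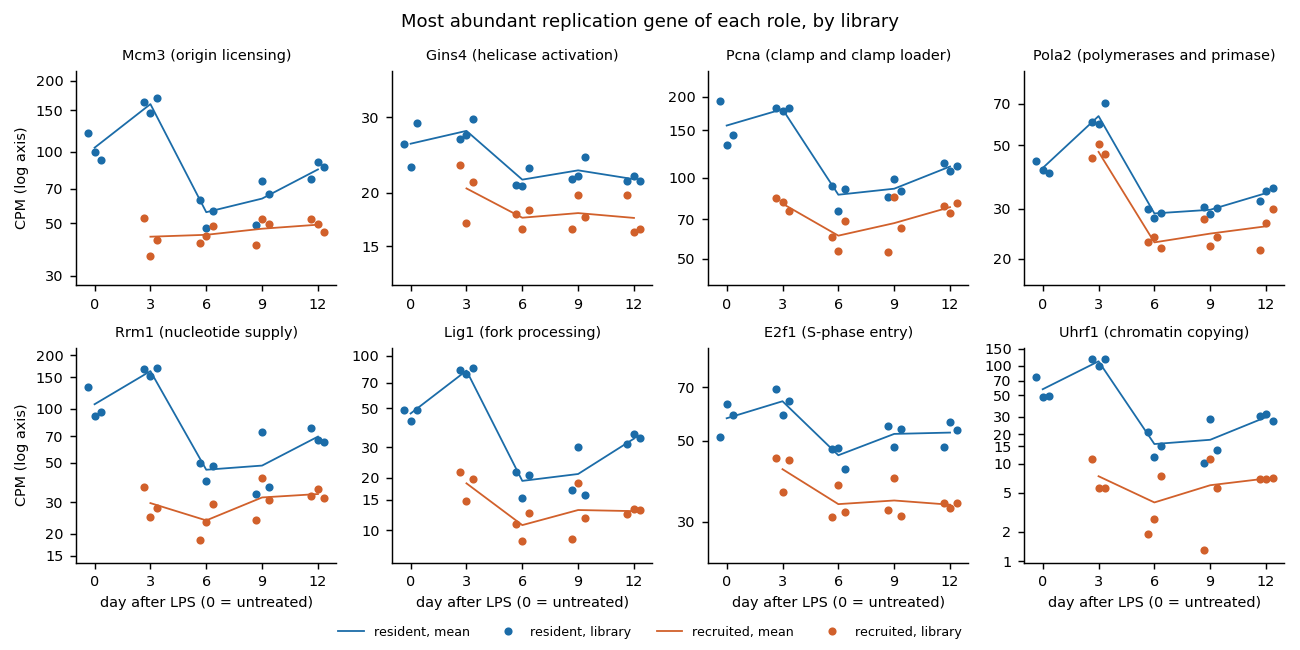
CPM (log axis) of the gene with the highest mean level (CPM, all groups) in each of the 8 roles, by day after LPS, with resident libraries in blue and recruited libraries in orange; points are the 3 libraries of a group and lines join group means. The resident line of each gene peaks on day 3, and the gap between populations is widest there for Mcm3 and narrow for Pola2.

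**Figure D2:**
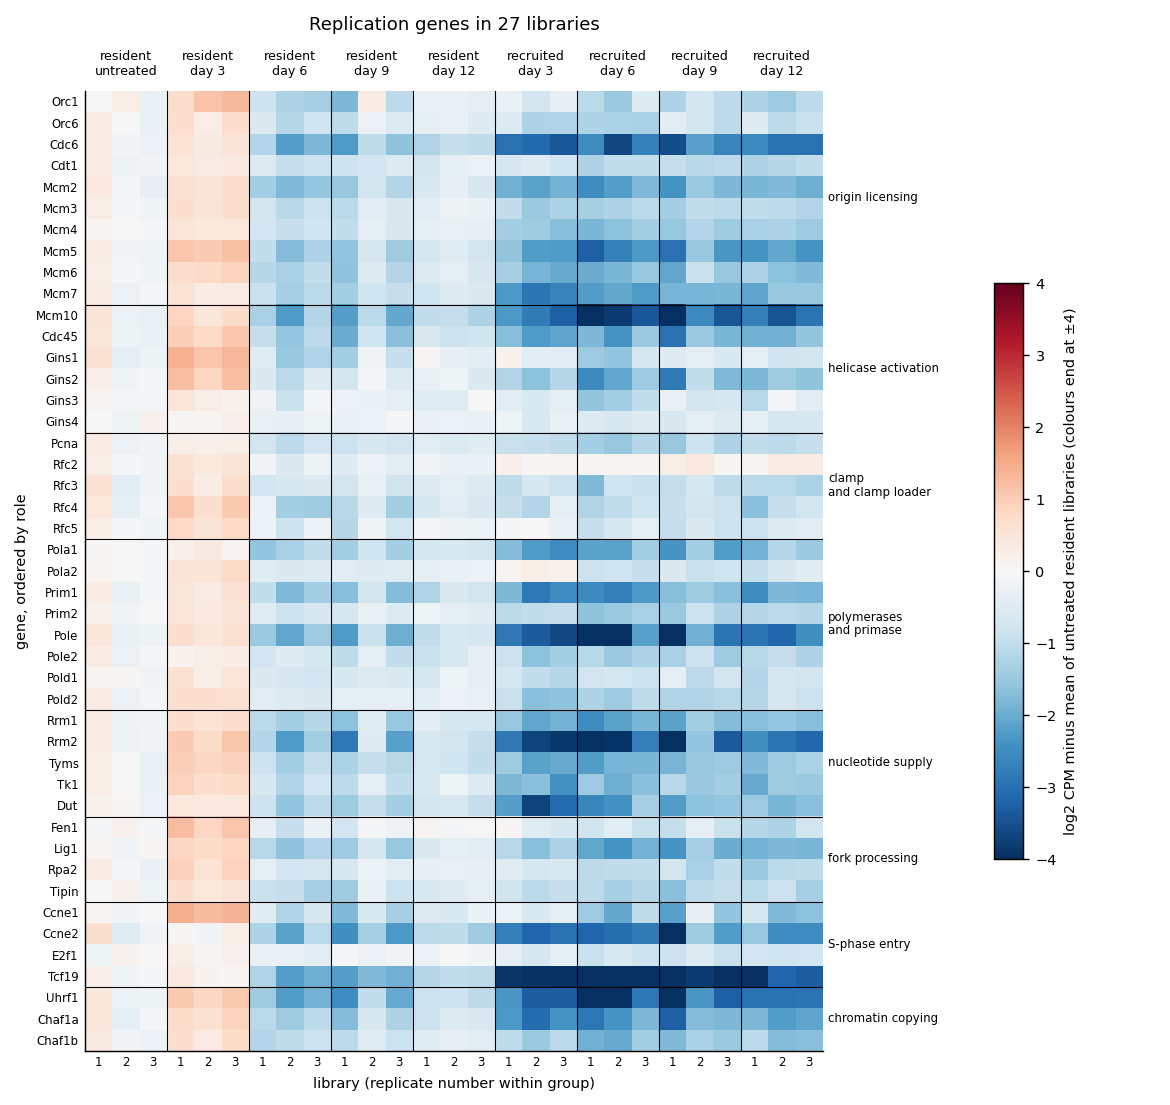
Each row is a gene, grouped by role, and each column a library; colour is log2 CPM minus the mean of the 3 untreated libraries, with colours ending at 4 and -4. The resident day 3 columns are above the untreated level, and most recruited columns are below it.

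Recruited macrophages held less of these transcripts than resident macrophages on the same day, and the gap was widest on day 3. On day 3 all 45 genes were lower in recruited cells (median log2 difference -1.94), against 23.5% of all tested genes that were lower, and all 45 calls held in every alternative. On day 6, 26 genes were lower (median -0.70; 18.8% of all genes were lower) and 1, Rfc2, was higher (16.2% of all genes were higher). On day 9, 22 were lower (median -0.55; 16.4% of all genes) and Rfc2 was higher (15.6%). On day 12, 33 were lower (median -0.92; 14.7% of all genes) and Rfc2 was again higher (12.6%). Without recruited day 6 replicate 2 the day 6 count of called genes, 27, became 17. The day 9 count of 23 became 9, 12 and 15 without resident day 9 replicate 2, recruited day 9 replicate 1 and recruited day 9 replicate 3. Leaving out replicate 2 of day 9 in both populations, a run added after values had been seen, kept the count within 1.5 times 23.

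Same-numbered libraries of a day deviated together in all 12 pairs, and with the replicate number as a block within each day the counts were 45, 35, 30 and 39 on days 3, 6, 9 and 12. Overlap of libraries is described throughout without regard to these pairs. The genes gained under the block were Mcm2, Mcm3, Mcm6, Cdc45, Gins4, Rfc3, Pola1 and Ccne1 on day 6, Cdt1, Mcm6, Cdc45, Pola2, Pole, Rrm1 and Rrm2 on day 9, and Orc1, Gins4, Tipin, Ccne1 and Ccne2 on day 12. Leaving out the 3 recruited libraries with the highest resident markers gave 15 on day 9 and 20 on day 12, all of the latter lower in recruited cells. Among the genes given by value below, Lig1 and Uhrf1 then lost their day 9 call (adjusted p = 0.0983 and 0.0903). The day 12 call was lost for Mcm10 (0.0776), Uhrf1 (0.112), Pole (0.144), Rfc3 (0.271), Rrm2 (0.312) and Rfc2 (0.322), with 1 recruited library remaining on that day. The genes differed widely in the size of the day 3 gap. That gap was largest for Tcf19 (-4.53), Rrm2 (-4.39), Uhrf1 (-3.90), Pole (-3.85) and Cdc6 (-3.73), and smallest for Rfc2 (-0.39), Pola2 (-0.42), Gins4 (-0.45), E2f1 (-0.62) and Gins3 (-0.80).

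**Figure D3:**
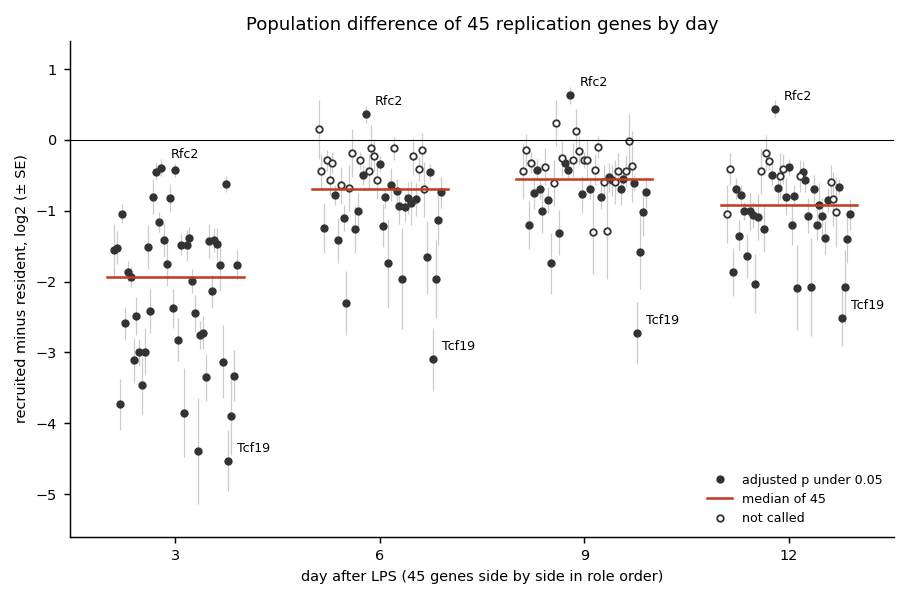
Log2 difference of recruited minus resident cells on days 3, 6, 9 and 12 for each of the 45 genes, with points for estimates and bars for the standard error. All estimates are below 0 on day 3 (median -1.94), and on the later days the medians lie between -0.92 and -0.55.

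Among the licensing genes, Mcm3 (ENSMUSG00000041859, chr1:20802968-20820312, minus strand in GENCODE M21, build GRCm38) had the highest CPM as a mean over the groups. Its product is a subunit of the hexameric Mcm2-7 helicase. Untreated resident libraries had 120.5, 99.5 and 92.4 CPM of Mcm3. On days 3, 6, 9 and 12 resident libraries had 162, 146 and 169.6, then 62.8, 47.7 and 56.4, then 48.9, 75.5 and 66.2, and finally 76.5, 90.4 and 86.1. Recruited libraries on the same days had 52.5, 36.4 and 42.6, then 41.4, 44.1 and 48.5, then 40.6, 52.1 and 49.5, and finally 52.05, 49.7 and 46.1. The day 3 resident libraries were above all others, and on days 6 and 9 the populations overlapped. Mcm3 rose in resident cells by 0.61 ± 0.15 (adjusted p = 0.00467) on day 3 and then fell to -0.90 ± 0.15 (adjusted p = 0.000699) relative to the untreated level on day 6. The recruited minus resident difference was -1.86 ± 0.15 (adjusted p = 2.66e-09) on day 3 and -0.78 ± 0.15 (adjusted p = 0.000466) on day 12, when the libraries were again apart.

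Cdc6, the ATPase that brings the Mcm ring to the origin (ENSMUSG00000017499, chr11:98907801-98923940, plus strand), showed the largest population gap of the licensing genes on days 3, 9 and 12. Resident libraries had 21, 15.3 and 14.02 CPM before injury and 24.2, 21.3 and 23.8 on day 3. On days 6, 9 and 12 they had 7.23, 3.52 and 4.64, then 3.34, 8.09 and 5.34, and 7.06, 8.603 and 8.11. Recruited libraries stayed low on every day. They had 1.96, 1.805 and 1.46 CPM on day 3, 2.78, 1.21 and 2.42 on day 6, 1.29, 3.599 and 2.54 on day 9 and 2.69, 1.95 and 1.95 on day 12. The populations overlapped on day 9 and were apart on days 3, 6 and 12. Recruited cells differed from resident cells by -3.73 ± 0.36 (adjusted p = 1.87e-08) on day 3 and -1.86 ± 0.34 (adjusted p = 0.000283) on day 12, and on day 9 it was -1.20 ± 0.34 (adjusted p = 0.00871, but 0.0823 without resident day 9 replicate 2 and 0.0684 without recruited day 9 replicate 1). Against the untreated level resident Cdc6 was -1.71 ± 0.32 (adjusted p = 0.00178) on day 6 and -1.59 ± 0.31 (adjusted p = 0.00573) on day 9.

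Mcm5, another subunit of the ring, was the licensing gene with the largest gap on day 6. Its resident levels were 129.5, 120.0 and 135 CPM on day 3 and 30.04, 17.8 and 25.3 on day 6, and its recruited levels 19.9, 12.4 and 12.2 and 6.08, 9.095 and 12.04. In recruited against resident cells it was -3.11 ± 0.32 (adjusted p = 1.05e-07) on day 3 and -1.42 ± 0.32 (adjusted p = 0.00135) on day 6, and within resident cells day 6 minus day 3 was -2.40 ± 0.31 (adjusted p = 1.8e-05), the largest fall of the licensing genes. Orc1, the ATPase subunit of the origin recognition complex, was at the low end, with 2.31, 2.83 and 1.89 CPM before injury and 3.87, 5.25 and 5.86 on day 3. Its day 3 rise was 1.09 ± 0.36 (adjusted p = 0.0321, but not called when any 1 of 4 libraries was left out, up to 0.129 without resident day 3 replicate 3). Mcm2 had 26.6, 20.1 and 23.1 CPM in resident cells on day 6 and 44.3, 54.6 and 44.1 on day 12, libraries that did not overlap, and -1.59 ± 0.22 (adjusted p = 0.000136) on day 6 against the untreated level.

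In recruited cells Mcm7, a further subunit of the ring, was the licensing gene that rose. It had 18.8, 12.2 and 14.6 CPM on day 3, 25.4, 25.4 and 25.8 on day 9 and 21.3, 32.3 and 32.3 on day 12, so every day 9 and day 12 library was above every day 3 library. It rose by 0.75 ± 0.18 (adjusted p = 0.00272) on day 9 and 0.92 ± 0.18 (adjusted p = 0.000349) on day 12. The 2 higher day 12 libraries, replicates 2 and 3, were those with the most resident marker RNA, and without the 3 recruited libraries richest in it the day 12 change was 0.48 (adjusted p = 0.16). Between the populations, recruited minus resident was -3.00 ± 0.19 (adjusted p = 6.05e-11) on day 3 and -1.10 ± 0.18 (adjusted p = 4.23e-05) on day 6. It was -0.85 ± 0.18 (adjusted p = 0.000691) on day 9 and -1.06 ± 0.18 (adjusted p = 0.000102) on day 12, so the gap was smaller on the later days than on day 3 but was called on each. The Mcm7 locus overlaps Ap4m1 and Cops6 on the other strand, and the strand setting of the counting is not given in any source used here. Cdt1, the licensing factor, moved the other way in recruited cells, with -0.40 ± 0.15 (adjusted p = 0.0381, but not called when any 1 of 5 libraries was left out, up to 0.177 without recruited day 6 replicate 1) on day 6 and -0.46 ± 0.15 (adjusted p = 0.0151, but 0.0695 without recruited day 3 replicate 2 and 0.0731 without recruited day 12 replicate 1) on day 12 relative to day 3. Among the other licensing genes, Mcm4 ranged over 38.4 to 108 CPM in the resident libraries and 21.5 to 34.4 CPM in the recruited libraries, and Mcm6 over 30.4 to 169.7 CPM in the resident libraries and 21.8 to 49.9 CPM in the recruited libraries. Mcm2 ranged over 20.1 to 109.9 CPM in the resident libraries and 12.2 to 24.5 CPM in the recruited libraries, Cdt1 over 28.3 to 73.6 CPM in the resident libraries and 23.2 to 38.1 CPM in the recruited libraries, and Orc6, a further subunit of the origin recognition complex, over 5.21 to 18.9 CPM in the resident libraries and 4.64 to 8.76 CPM in the recruited libraries. The Orc6 locus overlaps Vps35 on the other strand. Over the 10 licensing genes, 5 rose in resident cells on day 3 (13.3% of all genes). Below the untreated level were 9, 8 and 0 on days 6, 9 and 12 (2.65%, 1.88% and 0.206% of all genes). Lower levels in recruited cells were called for 10, 4, 6 and 8 of the 10 on days 3, 6, 9 and 12. The shares of all genes were 23.5%, 18.8%, 16.4% and 14.7%.

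The helicase activators held a gene that moved little, Gins4, and others with wide gaps. Gins4, a GINS subunit (ENSMUSG00000031546, chr8:23226616-23237659, minus strand), had the highest CPM of this role as a mean over the groups. Resident libraries had 26.01, 22.97 and 29.1 CPM before injury and 26.7, 27.3 and 29.6 on day 3. Later they had 20.8, 20.7 and 22.8 on day 6, 21.6, 21.8 and 24.3 on day 9 and 21.3, 21.8 and 21.3 on day 12. Recruited libraries had 23.2, 16.96 and 21.2 on day 3, 17.8, 16.4 and 18.2 on day 6, 16.4, 19.8 and 17.5 on day 9 and 19.7, 16.2 and 16.4 on day 12. The populations were apart on each day, though by a small margin. Recruited minus resident was -0.45 ± 0.12 (adjusted p = 0.0031) on day 3, and resident day 6 minus day 3 was -0.38 ± 0.12 (adjusted p = 0.02, but 0.0983 without resident day 3 replicate 3, 0.0642 without resident day 6 replicate 1 and 0.0779 without resident day 6 replicate 2).

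Mcm10, which helps to activate the helicase and recruit polymerase alpha (ENSMUSG00000026669, chr2:4989714-5012791, minus strand), had the largest gaps of this role. Resident libraries had 28.9, 17.5 and 16.7 CPM before injury and 36.9, 27.6 and 33.5 on day 3. Later they had 8.21, 4.11 and 9.02 on day 6, 4.35, 9.55 and 4.82 on day 9 and 10.3, 10.4 and 8.67 on day 12. Recruited libraries had 4.05, 2.83 and 1.97 on day 3, 1.17, 1.299 and 1.799 on day 6, 0.647, 3.37 and 1.796 on day 9 and 2.96, 1.74 and 2.501 on day 12, below the resident libraries of the same day throughout. The recruited minus resident difference was -3.46 ± 0.41 (adjusted p = 5.1e-07) on day 3 and -2.30 ± 0.45 (adjusted p = 0.000308) on day 6. It was -1.74 ± 0.43 (adjusted p = 0.00311) on day 9 and -2.03 ± 0.42 (adjusted p = 0.000801) on day 12. In resident cells Mcm10 was -1.56 ± 0.38 (adjusted p = 0.0134, but 0.093 without untreated replicate 1 and 0.0842 without resident day 6 replicate 2) on day 6 and -1.76 ± 0.38 (adjusted p = 0.0107, but 0.0787 without untreated replicate 1, 0.0608 without resident day 9 replicate 1 and 0.0668 without resident day 9 replicate 3) on day 9 against the untreated level.

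Gins1 had 8.799, 4.52 and 5.03 CPM in untreated, 15.4, 12.8 and 14.97 in day 3, 4.17, 1.96 and 2.45 in day 6 and 6.11, 4.63 and 4.36 in day 12 resident cells. It rose by 1.23 ± 0.31 (adjusted p = 0.00555) on day 3 and its day 6 minus day 3 change was -2.34 ± 0.33 (adjusted p = 2.71e-05), the largest of this role in both comparisons. In recruited cells it had 6.41, 4.32 and 4.37 on day 3 and 4.49, 3.28 and 3.42 on day 12, and day 6 minus day 3 was -1.01 ± 0.33 (adjusted p = 0.0242, but 0.109 without recruited day 3 replicate 1, 0.109 without recruited day 6 replicate 1 and 0.113 without recruited day 6 replicate 2). Gins3 was lower in recruited cells by -1.01 ± 0.26 (adjusted p = 0.00386) on day 6, and its recruited day 6 minus day 3 change was -0.84 ± 0.26 (adjusted p = 0.017, but 0.0519 without recruited day 3 replicate 3, 0.0955 without recruited day 6 replicate 1 and 0.062 without recruited day 6 replicate 2). Cdc45, which joins the Mcm ring and GINS into the working helicase, ranged over 3.97 to 34.4 CPM in the resident libraries and 1.94 to 5.74 CPM in the recruited libraries, and Gins2 over 6.71 to 33.2 CPM in the resident libraries and 1.89 to 7.12 CPM in the recruited libraries. On the other strand the Cdc45 locus overlaps Ufd1 and the Gins2 locus Gse1. Over the 6 genes, 3 rose in resident cells on day 3 (13.3% of all genes). Below the untreated level were 3, 2 and 0 on days 6, 9 and 12 (2.65%, 1.88% and 0.206% of all genes). Lower levels in recruited cells were called for 6, 3, 3 and 3 of the 6 (23.5%, 18.8%, 16.4% and 14.7% of all genes).

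Pcna, the sliding clamp (ENSMUSG00000027342, chr2:132249162-132253314, minus strand), had the highest level of the 45 genes in untreated cells, per kilobase as well as in CPM. Resident libraries had 192, 132 and 144 CPM before injury and 181, 177 and 181 on day 3. Later they had 93.5, 75 and 90.9 on day 6, 84.9, 98.7 and 89.4 on day 9 and 114, 106 and 111 on day 12. Recruited libraries had 83.7, 81.1 and 75.5 on day 3, 60.05, 53.5 and 69.3 on day 6, 53.2, 85.02 and 65.3 on day 9 and 78.3, 74.2 and 80.8 on day 12. The day 3 resident libraries overlapped the untreated ones because of the high untreated replicate 1, and the populations overlapped on day 9. Pcna fell to -0.85 ± 0.14 (adjusted p = 0.000656) on day 6 against the untreated level, and day 6 minus day 3 was -1.05 ± 0.14 (adjusted p = 1.86e-05). Recruited cells differed from resident cells by -1.16 ± 0.14 (adjusted p = 5.76e-07) on day 3 and -0.50 ± 0.14 (adjusted p = 0.00754, but 0.063 without recruited day 6 replicate 2) on day 6.

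The loader subunits did not move together. Rfc2 (ENSMUSG00000023104, chr5:134581366-134601805, plus strand) had 41.2, 33.7 and 32.2 CPM in untreated and 53.8, 47.5 and 51.1 in day 3 resident cells. It then had 32.8, 23.7 and 30.8 on day 6, 24.5, 30.2 and 25.9 on day 9 and 33.02, 29.4 and 29.3 on day 12. In recruited cells it had 41.04, 36.7 and 38.1 on day 3, 36.8, 38.3 and 36.9 on day 6, 41.5, 46.6 and 36.7 on day 9 and 36.6, 44.2 and 43.7 on day 12. Recruited libraries were thus below the resident ones on day 3 and above them on days 6, 9 and 12, and over days the recruited means varied less than the resident means. In recruited against resident cells it was -0.39 ± 0.12 (adjusted p = 0.0112) on day 3. It was 0.36 ± 0.12 (adjusted p = 0.0269, but 0.189 without resident day 6 replicate 2, 0.0626 without recruited day 6 replicate 2 and 0.0517 without recruited day 6 replicate 3) on day 6. On day 9 it was 0.63 ± 0.12 (adjusted p = 0.000349) and on day 12 0.44 ± 0.12 (adjusted p = 0.00967). Resident Rfc2 rose by 0.51 ± 0.12 (adjusted p = 0.00448) on day 3 and its day 6 minus day 3 change was a called fall (-0.80 ± 0.12). The day 12 call of Rfc2 was among those lost without the 3 recruited libraries richest in resident markers. The Rfc2 locus overlaps Lat2 on the other strand.

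Rfc4 showed the largest day 3 changes of the loader. Resident libraries had 7.64, 4.44 and 5.41 CPM before injury and 12.1, 9.004 and 11.9 on day 3. Later they had 4.87, 2.15 and 2.06 on day 6, 2.58, 3.91 and 2.15 on day 9 and 3.63, 4.19 and 3.69 on day 12, and recruited libraries 2.97, 2.43 and 4.37 on day 3. Between the populations, recruited minus resident was -1.75 ± 0.31 (adjusted p = 6.77e-05) on day 3, and resident day 6 minus day 3 was -1.86 ± 0.31 (adjusted p = 0.000171). Its rise over the untreated level on day 3 was 0.91 ± 0.30 (adjusted p = 0.0291, but not called when any 1 of 4 libraries was left out, up to 0.13 without untreated replicate 2). The Rfc4 locus overlaps Eif4a2 and the Rfc5 locus Wsb2 on the other strand. Rfc3 had 8.46, 9.56 and 8.33 CPM in resident and 5.74, 5.72 and 4.94 in recruited cells on day 12, a difference of -0.68 ± 0.24 (adjusted p = 0.0362, but not called when any 1 of 6 libraries was left out, up to 0.116 without recruited day 12 replicate 3). Rfc5 in recruited cells had 19.4, 20.5 and 16.9 on day 3, 10.5, 12.7 and 15.99 on day 6, 10.5, 13.5 and 11.3 on day 9 and 11.3, 13.9 and 15.2 on day 12, and its day 9 minus day 3 change was -0.69 ± 0.21 (adjusted p = 0.0125, but 0.056 without recruited day 9 replicate 1). Of the 5 genes of the clamp and loader, 3 rose in resident cells on day 3 (13.3% of all genes). Pcna alone was called below the untreated level on days 6 and 9 (2.65% and 1.88% of all genes).

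Pola2, a subunit of the polymerase alpha and primase complex that begins each new strand (ENSMUSG00000024833, chr19:5940542-5964202, minus strand), had the highest CPM of this role as a mean over the groups, although per kilobase Pold1 and Pold2 were higher. It had 44.1, 41.04 and 39.9 CPM in untreated and 60.4, 59.4 and 70.4 in day 3 resident cells. It then had 29.9, 27.8 and 28.9 on day 6, 30.5, 28.7 and 30.1 on day 9 and 31.9, 34.6 and 35.5 on day 12. In recruited cells it had 45.2, 50.5 and 46.6 on day 3, 22.9, 23.9 and 21.8 on day 6, 27.6, 22.2 and 23.8 on day 9 and 21.5, 26.7 and 29.8 on day 12. Both populations were therefore high on day 3, when every recruited library was also above every untreated library. Resident Pola2 rose by 0.61 ± 0.10 (adjusted p = 0.000232) on day 3 and its day 6 minus day 3 change was -1.13 ± 0.11 (adjusted p = 1.89e-07). Recruited Pola2 changed by -1.05 ± 0.11 (adjusted p = 1.42e-07) from day 3 to day 6, by -0.95 ± 0.11 (adjusted p = 3.36e-07) to day 9 and by -0.86 ± 0.11 (adjusted p = 9.73e-07) to day 12. These were the largest falls of the role in recruited cells, and the population gap on day 3 was -0.42 ± 0.10 (adjusted p = 0.0022).

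Pole, the catalytic subunit of polymerase epsilon (ENSMUSG00000007080, chr5:110286306-110337474, plus strand), had the largest gaps among the polymerases and spread widely between libraries. Resident libraries had 45.1, 27.3 and 28.9 CPM before injury and 52.2, 44.9 and 50.5 on day 3. Later they had 11.6, 7.69 and 11.98 on day 6, 6.68, 17.8 and 8.42 on day 9 and 16.5, 21.3 and 20.3 on day 12. Recruited libraries had 4.46, 3.14 and 2.55 on day 3, 0.586, 1.39 and 7.13 on day 6, 0.995, 8.62 and 4.19 on day 9 and 4.13, 3.56 and 5.86 on day 12. On day 6 recruited replicate 3 was far above the others of its group, and on day 9 recruited replicate 1 was far below the others. Recruited minus resident was -3.85 ± 0.63 (adjusted p = 4.46e-05) on day 3 and -1.74 ± 0.63 (adjusted p = 0.0371, but not called when any 1 of 4 libraries was left out, up to 0.163 without recruited day 6 replicate 1) on day 6. On day 12 it was -2.09 ± 0.60 (adjusted p = 0.0128, but 0.0526 without recruited day 12 replicate 2). Resident day 6 minus day 3 was -2.24 ± 0.57 (adjusted p = 0.00714).

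Prim1, the catalytic subunit of primase, had 19.3, 12.9 and 15.2 CPM in untreated and 6.74, 10.3 and 9.17 in day 12 resident cells, without overlap. It was -2.82 ± 0.30 (adjusted p = 7.65e-08) in recruited against resident cells on day 3 and -1.38 ± 0.28 (adjusted p = 0.00372) in resident cells on day 6 against the untreated level. Pold2, a subunit of polymerase delta, had 27.7, 18.99 and 20.8 CPM in untreated and 34.6, 35.4 and 34.3 in day 3 resident cells, a rise of 0.63 ± 0.16 (adjusted p = 0.00777, but 0.0535 without untreated replicate 2). Recruited minus resident for Pold2 on day 9 was -0.80 ± 0.17 (adjusted p = 0.00078), and in recruited cells it rose by 0.47 ± 0.17 (adjusted p = 0.0369, but not called when any 1 of 4 libraries was left out, up to 0.19 without recruited day 3 replicate 2) from day 3 to day 12. Pola1, the catalytic subunit of polymerase alpha, also rose in recruited cells, by 0.68 ± 0.27 (adjusted p = 0.0482, but not called when any 1 of 4 libraries was left out, up to 0.217 without recruited day 12 replicate 2) on day 12. Prim2, the regulatory subunit of primase, changed by -0.47 ± 0.15 (adjusted p = 0.0185, but 0.0542 without recruited day 3 replicate 3, 0.114 without recruited day 6 replicate 1 and 0.0754 without recruited day 6 replicate 2) from day 3 to day 6. Pold1, the catalytic subunit of polymerase delta, ranged over 27.5 to 71.2 CPM in the resident libraries and 20.9 to 35.7 CPM in the recruited libraries, Prim2 over 12.5 to 33.1 CPM in the resident libraries and 7.396 to 12.5 CPM in the recruited libraries, Pola1 over 8.83 to 34.2 CPM in the resident libraries and 4.58 to 12 CPM in the recruited libraries, and Pole2, a subunit of polymerase epsilon, over 4.66 to 11.8 CPM in the resident libraries and 2.98 to 5.27 CPM in the recruited libraries. Of the 8 genes, 4 rose in resident cells on day 3 (13.3% of all genes). Below the untreated level were 5, 6 and 0 on days 6, 9 and 12 (2.65%, 1.88% and 0.206% of all genes). Lower levels in recruited cells were called for 8, 6, 3 and 7 of them (23.5%, 18.8%, 16.4% and 14.7% of all genes).

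Nucleotide supply genes were much lower in recruited cells on day 3 (median -2.75 over 5 genes). Rrm1 (ENSMUSG00000030978, chr7:102441695-102469771, plus strand), the large subunit of ribonucleotide reductase, which makes deoxyribonucleotides, had 132, 90.97 and 95.5 CPM in untreated and 167, 152 and 169 in day 3 resident cells. Resident cells on days 6, 9 and 12 had 49.6, 39.5 and 47.7, then 33.2, 74.7 and 36.5, and 77.6, 67.1 and 64.9. Recruited libraries had 36.5, 24.6 and 27.9 on day 3, 18.4, 23.4 and 29.4 on day 6, 23.8, 40.9 and 30.98 on day 9 and 32.7, 35.6 and 31.8 on day 12. The populations were apart on days 3, 6 and 12 and overlapped on day 9, when replicate 2 was high in both. In each same-numbered pair of day 9, recruited Rrm1 was below resident Rrm1. The recruited minus resident difference was -2.45 ± 0.26 (adjusted p = 9.46e-08) on day 3, and resident Rrm1 was -1.22 ± 0.25 (adjusted p = 0.00407) on day 6 against the untreated level.

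Rrm2 (ENSMUSG00000020649, chr12:24708241-24714146, plus strand), the small subunit, whose level is tied to S phase, spread further. Resident libraries had 75.8, 53.5 and 56.5 CPM before injury and 124, 102 and 131 on day 3. Later they had 27.1, 12.7 and 23.1 on day 6, 8.25, 42.8 and 13.5 on day 9 and 40.02, 36.4 and 32.3 on day 12. Recruited libraries had 8.303, 4.55 and 4.08 on day 3, 3.08, 3.898 and 8.996 on day 6, 0.796, 20.4 and 5.99 on day 9 and 11.04, 7.95 and 6.89 on day 12. On day 9 replicate 2 was the highest and replicate 1 the lowest library in both populations. Recruited cells differed from resident cells by -4.39 ± 0.75 (adjusted p = 7.02e-05) on day 3 and -1.96 ± 0.71 (adjusted p = 0.038, but not called when any 1 of 4 libraries was left out, up to 0.147 without recruited day 6 replicate 1) on day 6. On day 12 it was -2.08 ± 0.69 (adjusted p = 0.029, but not called when any 1 of 5 libraries was left out, up to 0.0947 without recruited day 12 replicate 3), and resident day 6 minus day 3 was -2.51 ± 0.67 (adjusted p = 0.00985, but 0.0568 without resident day 6 replicate 2).

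Tyms, thymidylate synthase, had 21.4, 18.4 and 14.7 CPM in untreated and 11.7, 10.3 and 9.01 in day 12 resident cells, without overlap. It rose by 0.88 ± 0.19 (adjusted p = 0.00137) on day 3 and was -1.12 ± 0.19 (adjusted p = 0.002) on day 9 against the untreated level. In recruited against resident cells it was -2.75 ± 0.20 (adjusted p = 4.84e-10) on day 3. On day 12 it was the single gene of the 45 called against untreated cells, at -0.81 ± 0.19 (adjusted p = 0.0287, but not called when any 1 of 5 libraries was left out, up to 0.187 without untreated replicate 1). Tk1, thymidine kinase of the salvage pathway, was -1.20 ± 0.22 (adjusted p = 0.000259) in recruited against resident cells on day 12 and rose by 0.61 ± 0.23 (adjusted p = 0.0372, but 0.2 without recruited day 3 replicate 3, 0.16 without recruited day 9 replicate 1 and 0.0579 without recruited day 9 replicate 3) in recruited cells from day 3 to day 9. Its levels ranged over 14.9 to 63.2 CPM in the resident libraries and 6.26 to 15.9 CPM in the recruited libraries. Its locus overlaps Afmid on the other strand.

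Dut, the pyrophosphatase that keeps uracil out of DNA, rose in recruited cells after day 3 while most of the list did not. It had 2.903, 0.942 and 1.53 CPM on day 3, 2.197, 2.51 and 5.47 on day 6, 2.84, 4.35 and 4.71 on day 9 and 5.03, 3.84 and 4.27 on day 12, and only the day 12 libraries were all above the day 3 ones. The change from day 3 was 0.91 ± 0.35 (adjusted p = 0.0465, but 0.216 without recruited day 3 replicate 2, 0.146 without recruited day 3 replicate 3 and 0.46 without recruited day 6 replicate 3) on day 6, 1.11 ± 0.34 (adjusted p = 0.0133, but 0.0839 without recruited day 3 replicate 2, 0.0562 without recruited day 3 replicate 3 and 0.0563 without recruited day 9 replicate 3) on day 9 and 1.26 ± 0.34 (adjusted p = 0.00479) on day 12. Recruited minus resident for Dut was -3.35 ± 0.33 (adjusted p = 3.23e-08) on day 3. Of the 5 genes, 2 rose in resident cells on day 3 (13.3% of all genes). Below the untreated level were 4, 4 and 1 on days 6, 9 and 12 (2.65%, 1.88% and 0.206% of all genes). Lower levels in recruited cells were called for 5, 5, 2 and 5 of them (23.5%, 18.8%, 16.4% and 14.7% of all genes).

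Lig1, the ligase that seals Okazaki fragments (ENSMUSG00000056394, chr7:13277283-13311433, plus strand), had the highest CPM of the fork-processing genes as a mean over the groups. Resident libraries had 48.8, 42.5 and 48.9 CPM before injury and 83.2, 78.2 and 85.5 on day 3. Later they had 21.6, 15.3 and 20.7 on day 6, 17.01, 30.1 and 16.02 on day 9 and 31.1, 35.6 and 34.01 on day 12. Recruited libraries had 21.5, 14.7 and 19.6 on day 3, 10.9, 8.72 and 12.5 on day 6, 8.91, 18.6 and 11.8 on day 9 and 12.4, 13.2 and 13.1 on day 12. The rise on day 3 and the level under the untreated one on days 6, 9 and 12 were without overlap in each case. Lig1 rose by 0.82 ± 0.22 (adjusted p = 0.00919) on day 3, and its day 6 minus day 3 change was -2.10 ± 0.23 (adjusted p = 1.35e-06). Against the untreated level it was -1.28 ± 0.22 (adjusted p = 0.00116) on day 6 and -1.15 ± 0.22 (adjusted p = 0.00509) on day 9. Between the populations, recruited minus resident was -2.14 ± 0.23 (adjusted p = 9.65e-08) on day 3 and -0.84 ± 0.23 (adjusted p = 0.00691) on day 6. It was -0.69 ± 0.23 (adjusted p = 0.0229, but 0.27 without resident day 9 replicate 2, 0.145 without recruited day 9 replicate 1 and 0.0784 without recruited day 9 replicate 3) on day 9 and -1.38 ± 0.23 (adjusted p = 9.48e-05) on day 12. In recruited cells day 6 minus day 3 was -0.79 ± 0.23 (adjusted p = 0.012, but 0.0535 without recruited day 3 replicate 1 and 0.077 without recruited day 6 replicate 2). The Lig1 locus overlaps Zswim9 on the other strand.

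Fen1, the flap nuclease that trims Okazaki fragments, had 4.05, 4.901 and 4.02 CPM in untreated and 10.3, 7.75 and 9.47 in day 3 resident cells, and 4.46, 3.06 and 2.69 and 1.89, 1.74 and 2.501 in recruited cells on days 3 and 12. It rose by 1.09 ± 0.24 (adjusted p = 0.00201) in resident cells on day 3 and was -1.43 ± 0.24 (adjusted p = 4.28e-05) in recruited against resident cells. In recruited cells it changed by -0.73 ± 0.26 (adjusted p = 0.0283, but 0.185 without recruited day 3 replicate 1, 0.087 without recruited day 12 replicate 1 and 0.113 without recruited day 12 replicate 2) from day 3 to day 12, and Rpa2, a subunit of the protein that coats single-stranded DNA, by -0.58 ± 0.17 (adjusted p = 0.00981, but 0.0682 without recruited day 12 replicate 1). The levels of Rpa2 ranged over 10.8 to 35.2 CPM in the resident libraries and 6.64 to 13.3 CPM in the recruited libraries. The Fen1 locus overlaps Tmem258 on the other strand. Tipin, which stabilises stalled forks, had 10.1, 11.2 and 8.93 CPM in untreated and 6.55, 6.91 and 7.66 in day 12 resident cells, and was -1.47 ± 0.23 (adjusted p = 1.56e-05) in recruited against resident cells on day 3. Of the 4 genes, 3 rose in resident cells on day 3 (13.3% of all genes). Below the untreated level were 3, 1 and 0 on days 6, 9 and 12 (2.65%, 1.88% and 0.206% of all genes). Lower levels in recruited cells were called for 4, 1, 2 and 3 of them (23.5%, 18.8%, 16.4% and 14.7% of all genes). The day 6 count was near that share.

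Among the genes of S-phase entry, E2f1 and Tcf19 stood at opposite ends. E2f1 (ENSMUSG00000027490, chr2:154559407-154569892, minus strand), a transcription factor that activates S-phase genes, had 51.2, 62.9 and 58.6 CPM in untreated and 69.1, 58.9 and 64.3 in day 3 resident cells. It then had 47.4, 47.7 and 41.8 on day 6, 54.8, 48.1 and 53.7 on day 9 and 48.2, 56.2 and 53.5 on day 12. Recruited libraries had 44.7, 36.3 and 44.3 on day 3, 30.9, 37.8 and 31.8 on day 6, 32.4, 39.4 and 31.1 on day 9 and 33.8, 32.7 and 33.7 on day 12. The populations were apart on each day. Recruited minus resident was -0.62 ± 0.11 (adjusted p = 9.32e-05) on day 3 and -0.45 ± 0.11 (adjusted p = 0.00344) on day 6. It was -0.61 ± 0.11 (adjusted p = 0.000197) on day 9 and -0.66 ± 0.11 (adjusted p = 0.000134) on day 12. Resident E2f1 was not called on any day against the untreated level, and its day 6 minus day 3 change was -0.49 ± 0.11 (adjusted p = 0.00273). Recruited E2f1 changed by -0.32 ± 0.11 (adjusted p = 0.0348, but not called when any 1 of 4 libraries was left out, up to 0.182 without recruited day 6 replicate 1) from day 3 to day 6 and -0.32 ± 0.11 (adjusted p = 0.0263, but not called when any 1 of 5 libraries was left out, up to 0.0999 without recruited day 3 replicate 1) to day 12.

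Tcf19 (ENSMUSG00000050410, chr17:35512734-35516824, minus strand), a gene induced at the G1 to S transition, had the widest population gap of the 45. Resident libraries had 34.4, 26.6 and 28.7 CPM before injury and 38.8, 32.6 and 31.7 on day 3. Later they had 12.9, 6.32 and 7.67 on day 6, 6.36, 8.55 and 7.72 on day 9 and 13.6, 14.9 and 14.3 on day 12. Recruited libraries had 1.89, 1.805 and 0.728 on day 3, 0.732, 1.21 and 1.18 on day 6, 0.199, 1.95 and 1.496 on day 9 and 1.17, 3.21 and 2.93 on day 12. Every recruited library was below every resident library of its day. The recruited minus resident difference was -4.53 ± 0.43 (adjusted p = 2.39e-08) on day 3 and -3.10 ± 0.45 (adjusted p = 1.2e-05) on day 6. It was -2.73 ± 0.44 (adjusted p = 4.69e-05) on day 9 and -2.51 ± 0.40 (adjusted p = 6.14e-05) on day 12. Resident Tcf19 was -1.74 ± 0.36 (adjusted p = 0.00453) on day 6 and -1.99 ± 0.36 (adjusted p = 0.00361) on day 9 against the untreated level.

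The 2 E-type cyclins activate the kinase Cdk2 at S-phase entry. Ccne1 had 10.02, 8.35 and 9.37 CPM in untreated, 25.6, 22.4 and 23.8 in day 3 and 6.47, 3.98 and 5.93 in day 6 resident cells, a rise of 1.37 ± 0.35 (adjusted p = 0.00711) on day 3 and a day 6 minus day 3 change of -2.13 ± 0.37 (adjusted p = 0.000234). Ccne2 had 20.2, 9.27 and 11.7 in untreated, 2.27, 5.04 and 2.55 in day 9 and 6.24, 6.32 and 4.81 in day 12 resident cells, and it was -2.07 ± 0.48 (adjusted p = 0.0163, but 0.108 without untreated replicate 1, 0.0791 without resident day 9 replicate 1 and 0.0901 without resident day 9 replicate 3) on day 9 against the untreated level. Recruited Ccne1 had 7.83, 5.97 and 7.21 CPM on day 3, 3.29, 2.13 and 4.498 on day 6, 1.94, 7.35 and 2.99 on day 9 and 5.92, 2.58 and 2.87 on day 12, and its day 6 minus day 3 change was -1.06 ± 0.38 (adjusted p = 0.0378, but not called when any 1 of 4 libraries was left out, up to 0.169 without recruited day 6 replicate 2). Ccne2 was -3.13 ± 0.52 (adjusted p = 3.28e-05) in recruited against resident cells on day 3. The Ccne2 locus overlaps Ints8 on the other strand. Of the 4 genes, Ccne1 alone rose in resident cells on day 3 (13.3% of all genes). Below the untreated level were 1, 2 and 0 on days 6, 9 and 12 (2.65%, 1.88% and 0.206% of all genes). Lower levels in recruited cells were called for 4, 3, 2 and 2 of them (23.5%, 18.8%, 16.4% and 14.7% of all genes).

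Genes that copy chromatin behind the fork were called lower in recruited cells on every day, all 3 of them, but the calls of days 6 and 9 rested on single libraries. The shares of all genes called lower were 23.5%, 18.8%, 16.4% and 14.7% on days 3, 6, 9 and 12. Uhrf1 (ENSMUSG00000001228, chr17:56303321-56323486, plus strand), which guides DNA methylation to the new strand, had 76.4, 47.7 and 48.8 CPM in untreated and 118, 99.9 and 116 in day 3 resident cells. It then had 20.8, 11.7 and 15.01 on day 6, 10.02, 28.6 and 13.9 on day 9 and 30.9, 31.8 and 26.96 on day 12. Recruited libraries had 11.1, 5.57 and 5.604 on day 3, 1.904, 2.69 and 7.41 on day 6, 1.29, 11.02 and 5.69 on day 9 and 6.91, 6.98 and 7.197 on day 12. The populations were apart on days 3, 6 and 12, and on day 9 replicate 2 was high in both and the libraries overlapped. Recruited cells differed from resident cells by -3.90 ± 0.55 (adjusted p = 7.41e-06) on day 3 and -1.96 ± 0.55 (adjusted p = 0.0086, but 0.0568 without recruited day 6 replicate 1) on day 6. It was -1.58 ± 0.53 (adjusted p = 0.0267, but 0.183 without resident day 9 replicate 2, 0.107 without recruited day 9 replicate 1 and 0.0688 without recruited day 9 replicate 3) on day 9 and -2.08 ± 0.52 (adjusted p = 0.00527) on day 12. Resident Uhrf1 was -1.86 ± 0.50 (adjusted p = 0.0287, but not called when any 1 of 4 libraries was left out, up to 0.13 without resident day 6 replicate 2) on day 6 against the untreated level, and its day 6 minus day 3 change, -2.81 ± 0.51 (adjusted p = 0.000562), was the largest of the 45.

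Chaf1a, the large subunit of the histone chaperone CAF-1, had 6.21, 3.53 and 5.82 CPM in recruited cells on day 3, 3.09, 9.297 and 8.83 on day 9 and 8.79, 6.42 and 7.14 on day 12. It was -3.33 ± 0.36 (adjusted p = 1.38e-07) in recruited against resident cells on day 3. Of the 3 genes, Chaf1b, another CAF-1 subunit, alone rose in resident cells on day 3 (13.3% of all genes). That call was lost when any 1 of 4 libraries was left out, up to adjusted p of 0.195 without untreated replicate 3. It was also lost with the replicate number as a block. Below the untreated level were 3, 2 and 0 on days 6, 9 and 12 (2.65%, 1.88% and 0.206% of all genes). The levels of Chaf1b ranged over 8.55 to 32.2 CPM in the resident libraries and 4.64 to 9.52 CPM in the recruited libraries. On day 6 the lower levels of Chaf1a and Chaf1b were each not called when any 1 of 3 libraries was left out, up to adjusted p of 0.0959 and 0.0702. On day 9 each was not called without either of 2 libraries, up to 0.174 and 0.0785, both without resident day 9 replicate 2. The Chaf1a locus overlaps Ubxn6 on the other strand.

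Whether the population difference changed after day 3 was tested over the 4 days together, with 3 degrees of freedom and in either direction. A change was called for 27 of the 45 genes, against 10.7% of all tested genes. Of the 27, 18 were called in every alternative. Rfc2, among the 27, changed sign instead of narrowing, from -0.39 on day 3 to 0.36, 0.63 and 0.44 on days 6, 9 and 12. Leaving out a single library gave 18 to 34. Relative to day 3, the recruited minus resident difference moved upward for 44 of the 45 on day 6 (median 1.33), for 45 on day 9 (1.45) and for 44 on day 12 (1.10), and all 3 values rest on the same day 3 libraries. Origin licensing contributed 9 of its 10 genes, led by Mcm7 (adjusted p = 2.92e-05) and Mcm3 (0.000152), and nucleotide supply 4 of 5, led by Tyms (5.1e-05). No gene of S-phase entry was called, and E2f1 had an adjusted p of 0.814. With the replicate number as a block the count was 37, with Mcm10, Gins2, Rfc3, Pole2, Rrm2, Fen1, Ccne1, Ccne2, Uhrf1 and Chaf1b added.

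Recruited cells showed no common course of their own over days. Against recruited day 3, 1 gene was higher and 9 were lower on day 6 (15.1% and 16.8% of all genes), and 4 were higher and 5 lower on day 12 (19.8% and 19.5%). On day 9 the test called 5 genes (36.3% of all genes), of which Mcm7, Tk1 and Dut were higher and Rfc5 and Pola2 lower. The median changes were -0.26, -0.04 and 0.09. The recruited mean was highest on day 3 for 22 genes, on day 12 for 13 and on day 9 for 10, and lowest on day 6 for 25. Most of these calls rested on few libraries, since Pola2 was called in every alternative on days 6, 9 and 12, Mcm7 on day 9 and Dut on day 12, and none of the others was. The day 6 count of 10 became 5 and 4 without recruited day 3 replicates 1 and 3, and 3 without recruited day 6 replicate 1 or 2. The day 9 count of 5 became 11 and 3 without recruited day 9 replicates 2 and 3, and the day 12 count of 9 became 5 without recruited day 12 replicate 2. Without the 3 recruited libraries richest in resident markers, Tk1 (adjusted p = 0.0552) and Dut (0.0679) were not called on day 9, and on day 12 neither the rises of Mcm7, Pola1 (0.664) and Pold2 (0.629) nor the falls of Cdt1 (0.061), Fen1 (0.133) and E2f1 (0.197) were. With library size alone as the scaling, 4 genes were higher and 1 lower on day 12. On day 6, Pcna changed by -0.39 ± 0.14 (adjusted p = 0.0375, but not called when any 1 of 5 libraries was left out, up to 0.207 without recruited day 6 replicate 2).

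Against untreated resident cells, recruited cells were low on every day. Fewer transcripts were called for 37 of the 45 genes on day 3 (median -1.33), 44 on day 6 (-1.61), 42 on day 9 (-1.35) and 42 on day 12 (-1.36), against 26.9%, 22.7%, 19.7% and 15.5% of all genes, and none was higher. These comparisons share the untreated libraries and set different populations against each other. Orc1, Gins1, Gins3, Rfc2, Rfc5, Pola2, Fen1 and Ccne1 were not called on day 3, when Pola2 had 47.5 ± 2.76 CPM (mean ± SD, n = 3) in recruited and 41.7 ± 2.14 in untreated cells. Rfc2 was not called on any day, with 37.3 ± 0.871 CPM in day 6 recruited against 35.7 ± 4.84 in untreated cells, and Gins1 and Gins3 were not called on days 9 and 12. Tcf19 had the largest difference on each day, -4.34 ± 0.43 (adjusted p = 1.85e-08) on day 3, -4.85 ± 0.45 (adjusted p = 1.94e-08) on day 6, -4.72 ± 0.44 (adjusted p = 3e-08) on day 9 and -3.58 ± 0.40 (adjusted p = 5.35e-07) on day 12. Cdc6 was -3.26 ± 0.35 (adjusted p = 5.19e-08) on day 3 and -2.95 ± 0.35 (adjusted p = 3.83e-07) on day 6.

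**Figure D4:**
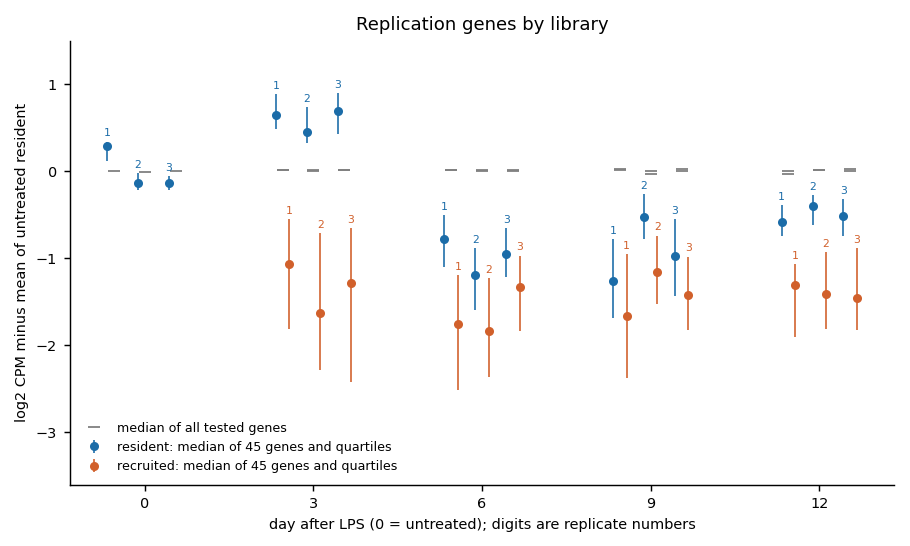
Median over the 45 genes of log2 CPM minus the untreated mean for each of the 27 libraries by day, with bars from the lower to the upper quartile of the genes; resident libraries are blue and recruited libraries orange. Resident day 3 libraries lie at 0.45 to 0.69, resident day 6 libraries at -1.19 to -0.78, and recruited libraries at -1.84 to -1.06.

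As library medians over the 45 genes, relative to the untreated mean on the log2 scale, the untreated libraries lay at 0.29, -0.13 and -0.14. Resident day 3 libraries lay at 0.65, 0.45 and 0.69, day 6 at -0.78, -1.19 and -0.95, day 9 at -1.26, -0.52 and -0.97 and day 12 at -0.58, -0.40 and -0.51. Recruited libraries lay at -1.06, -1.63 and -1.28 on day 3, -1.76, -1.84 and -1.33 on day 6, -1.66, -1.16 and -1.42 on day 9 and -1.31, -1.41 and -1.46 on day 12. Every recruited library except day 9 replicate 2 and day 3 replicate 1 was below every resident library, and the median of all genes stayed within -0.03 and 0.03 in each library.

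Per kilobase of exons, which allows genes to be compared, Pcna led in untreated cells at 65.02 CPM per kb, followed by Mcm3 at 27.8, Rrm2 at 22.4 and Mcm4, another helicase subunit, at 21.5. Orc1 was the lowest at 0.674. On day 3 resident cells had 74.8 for Pcna, 43.05 for Rrm2 and 42.4 for Mcm3. In recruited cells on day 6 the order differed, with Pcna at 25.4, Gins4 at 12.9, Mcm3 at 11.9 and E2f1 at 10.6, and Mcm10 the lowest at 0.185.

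Other genes of the pathway were taken from lists outside the 45, and the shares of all genes apply to each list. Of 34 other replication factors, 19 were lower and 1 higher in recruited than in resident cells on day 3 (median -0.54), against 23.5% of all genes that were lower and 23.2% that were higher on that day. They were led by Clspn, a checkpoint adaptor (-4.13 ± 0.64), and Ticrr, a partner in origin firing (-4.11 ± 0.68), and Mcm9 alone was higher (0.34 ± 0.14). In resident cells on day 3, 4 of the 34 rose (13.3% of all genes) and 2 fell (10.5%). The former included Gmnn, which restrains Cdt1 (0.59 ± 0.16), while Orc4 (-0.46 ± 0.17) and Top1 (-0.26 ± 0.09) fell. Of 15 other nucleotide enzymes, 9 were lower and 2 higher in recruited cells on day 3, with Samhd1, which degrades deoxynucleotides, higher at 0.79 ± 0.13. The other higher enzyme was Rrm2b, the reductase subunit used outside S phase (0.35 ± 0.14), which also fell in resident cells on day 3 (-0.80 ± 0.14). Of 10 genes of histone supply and chromatin, 9 were lower on day 3 and 6 on day 12 (23.5% and 14.7% of all genes). They were led by the histone chaperone Asf1b (-3.26 ± 0.51 and -1.94 ± 0.50).

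Of 12 genes of the E2F and Rb family, 7 were lower and 3 higher in recruited cells on day 3. The shares of all genes were 23.5% and 23.2%, so the count of higher genes was near its share. The repressors E2f7 (-4.25 ± 0.58) and E2f8 (-2.38 ± 0.48) were the lowest, and Rb1 (0.57 ± 0.11), E2f4 (0.41 ± 0.09) and E2f5 (0.64 ± 0.23) were the higher genes. Rb1, the retinoblastoma protein gene, had fallen in resident cells on day 3 (-0.56 ± 0.11). Of 11 tested G1 and S cyclins and kinases, 8 were lower and 1 higher on day 3 (23.5% and 23.2% of all genes). Ccna2, the S-phase cyclin, was at -4.09 ± 0.84, Mybl2 at -2.94 ± 0.28 and Ccnd1, a G1 cyclin, at 1.70 ± 0.54. Of 9 tested cell cycle inhibitors, 4 were lower and 3 higher (23.5% and 23.2% of all genes), with the Cdk inhibitors Cdkn2a (-7.90 ± 1.12) and Cdkn2b (-4.52 ± 0.68) lower. Among the higher genes were Maf (5.51 ± 0.65) and Cdkn1a (1.20 ± 0.34). Maf is a macrophage transcription factor known to hold back self-renewal. Of 20 checkpoint and repair genes, 15 were lower on day 3 (23.5% of all genes).

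Most mitotic genes were also lower in recruited cells on days 3, 6 and 12. All 23 were called lower on day 3 (median -3.91), and 20, 5 and 21 on days 6, 9 and 12. Of all tested genes 23.5%, 18.8%, 16.4% and 14.7% were lower on these days, so the day 9 count was close to that share. In resident cells 2 of 23 rose on day 3 (median 0.94; 13.3% of all genes rose) and 2 fell below the untreated level on day 6 (median -1.22; 2.65% of all genes fell). Mki67, a marker of cycling cells, had 283, 232 and 219 CPM in untreated and 533, 502 and 538 in day 3 resident cells, and 198, 204 and 134 in day 3 recruited cells. The day 3 recruited libraries thus lay below the untreated ones, but that difference was not called (-0.45 ± 0.39, adjusted p = 0.342). Recruited minus resident for Mki67 was -1.55 ± 0.40 (adjusted p = 0.00315) on day 3 and -1.42 ± 0.40 (adjusted p = 0.0115, but 0.0505 without recruited day 12 replicate 2 and 0.0536 without recruited day 12 replicate 3) on day 12, and its resident rise on day 3 was 1.10 ± 0.39 (adjusted p = 0.0484, but not called when any 1 of 6 libraries was left out, up to 0.142 without untreated replicate 3). On days 6 and 9 the populations overlapped for Mki67 and the difference was not called, at -0.46 ± 0.39 (adjusted p = 0.398) and -0.40 ± 0.39 (adjusted p = 0.486), although with the replicate number as a block the day 6 difference passed (-0.47, adjusted p = 0.0393). The day 9 value was 0.30 (adjusted p = 0.606) without resident day 9 replicate 2 and -0.92 (adjusted p = 0.0999) without recruited day 9 replicate 2. Each of these runs removed 1 side of a pair that was high in both populations (154.1 CPM in resident and 107.9 in recruited cells). Without both libraries the difference stayed negative and was not called. Without the 3 recruited libraries richest in resident markers the day 12 difference of Mki67 was -0.94 (adjusted p = 0.316). Kif23, a kinesin of cell division, was -4.51 ± 0.38 (adjusted p = 5.39e-09) on day 3 and -2.30 ± 0.35 (adjusted p = 2.16e-05) on day 6. On day 9 it was -2.08 ± 0.34 (adjusted p = 5.97e-05) and on day 12 -2.50 ± 0.34 (adjusted p = 1.21e-05), so its gap was called on every day. Top2a, the topoisomerase that untangles copied chromosomes, was -3.83 ± 0.64 (adjusted p = 5.85e-05) on day 3. On day 6 Top2a was -1.96 ± 0.61 (adjusted p = 0.0162, but not called when any 1 of 3 libraries was left out, up to 0.0818 without recruited day 6 replicate 1). On day 9 it was -1.25 ± 0.59 (adjusted p = 0.116), not called and with overlapping libraries, and on day 12 -2.30 ± 0.61 (adjusted p = 0.00736). Within recruited cells these 3 genes differed in course from day 3 to day 12. Mki67 fell (-1.70 ± 0.40, adjusted p = 0.00217) and Top2a was not called (0.08 ± 0.60, adjusted p = 0.936). Kif23 rose (1.14 ± 0.37, adjusted p = 0.0176, but not called without either of 2 libraries, up to 0.0971 without recruited day 3 replicate 2).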

How the data were processed

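Polyadenylated RNA of 27 sorted libraries was sequenced on an Ion Proton after a modified KAPA stranded mRNA kit, per the labels' protocols. The deposited tables hold raw read counts per Ensembl gene and, separately, counts of unassigned reads, without normalization; the latter stayed out of library sizes and tests (no feature 6.774 to 26.45% of reads, ambiguous 1.009 to 1.66%). The submitters' processing notes list mm10, R 3.1.0, DESeq2 1.4.5, HTSeq 0.6.0 and STAR 2.4.0a. Strand option and annotation are not given in any source used here.

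Symbols, positions and exon lengths came from GENCODE M21 (36345 of 38124 genes). edgeR 4.0.16 in R 4.3.3 was run with TMM, filterByExpr (minimum count 10, total 15), group means fitted to all libraries together (18 residual degrees of freedom) and robust quasi-likelihood F tests, adjusted by Benjamini-Hochberg (threshold 0.05) within each comparison. An exact permutation test of 3 against 3 libraries has a smallest p of 0.1. In data simulated on recruited minus resident day 3 (13285 genes, 200 of them changed), 70% of 2-fold and 93% of 4-fold changes were recovered. Of the genes called there, 4.68% were false. In the real comparison 3193 of 13599 genes were called lower and 3149 higher, so these rates may not carry over. The alternatives were DESeq2 1.42.0, other scalings and filters, fewer groups, a replicate block, a covariate for stretches of consecutive numbers in the column names of the unassigned-read table, whose meaning is not stated, and libraries left out.

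The members and lists were chosen with earlier results of these data known. Any member could be named. Every library was given for the highest and the most changed gene of each role, and genes off the majority were named. Of the other lists, the 2 largest called changes in each direction, genes against the majority, Mki67, Top2a and Kif23 could be named. Some genes that this rule names are not reported here. Same-numbered libraries of a day correlated in their deviations (r 0.166 to 0.518, best with their own number), which is seen in the data and not stated in the labels. Across days r ranged from -0.433 to 0.293, and all 3 pairs exceeded 0.1 only between resident days 3 and 6 (0.109 to 0.26).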

Additional observations from a re-analysis of the deposited data

Results flagged for a closer look

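The recruited minus resident difference changed between days 3, 6, 9 and 12 for 27 of the 45 replication genes, by edgeR's test of that change itself with Benjamini-Hochberg adjustment over 13599 genes (10.7% of which passed). For the licensing genes the adjusted p was 2.92e-05 for Mcm7, 0.000152 for Mcm3, 0.00035 for Mcm4, 0.000475 for Mcm2, 0.0019 for Mcm6, 0.00272 for Cdc6, 0.0106 for Mcm5, 0.0219 for Orc6 and 0.0384 for Cdt1. For the helicase activators the adjusted p was 0.0025 for Cdc45 and 0.048 for Gins1. For the clamp and loader the adjusted p was 0.00146 for Rfc2, 0.0213 for Rfc4 and 0.0385 for Pcna. For the polymerases and primase the adjusted p was 0.000871 for Pold2, 0.00101 for Pold1, 0.00149 for Prim1, 0.0048 for Pola1 and 0.0328 for Prim2. For nucleotide supply the adjusted p was 5.1e-05 for Tyms, 0.00028 for Tk1, 0.000644 for Dut and 0.0043 for Rrm1. For fork processing the adjusted p was 0.0112 for Lig1, 0.0225 for Rpa2 and 0.0368 for Tipin. For chromatin copying the adjusted p was 0.00601 for Chaf1a. Relative to day 3, the difference of Mcm7 had moved upward by 1.90 on day 6, 2.15 on day 9 and 1.94 on day 12 on the log2 scale. Relative to day 3, the difference of Tyms had moved upward by 1.79 on day 6, 2.22 on day 9 and 2.04 on day 12 on the log2 scale. Relative to day 3, the difference of Dut had moved upward by 2.46 on day 6, 2.75 on day 9 and 2.43 on day 12 on the log2 scale. For Rfc2 the shifts were 0.75, 1.03 and 0.84, from a level below the resident one on day 3 to a level above it. The test missed the threshold without a single library for 9 of the 27 genes. Mcm5 had 0.0511 without recruited day 3 replicate 2 and 0.0514 without recruited day 3 replicate 3. Rfc4 had 0.0655 without resident day 3 replicate 1, 0.0633 without resident day 3 replicate 3, 0.0574 without recruited day 3 replicate 1 and 0.0904 without recruited day 3 replicate 2. Orc6 had 0.0749 without resident day 3 replicate 1, 0.0727 without resident day 3 replicate 3, 0.0973 without recruited day 3 replicate 2 and 0.0949 without recruited day 3 replicate 3. Rpa2 had 0.0738 without resident day 3 replicate 1, 0.0738 without resident day 3 replicate 3, 0.0794 without recruited day 3 replicate 2 and 0.0657 without recruited day 3 replicate 3. Prim2 was not called when any 1 of 7 libraries was left out, up to 0.101 without resident day 3 replicate 3. Tipin was not called when any 1 of 10 libraries was left out, up to 0.125 without recruited day 3 replicate 2. Cdt1 was not called when any 1 of 15 libraries was left out, up to 0.12 without recruited day 3 replicate 3. Pcna was not called when any 1 of 11 libraries was left out, up to 0.132 without recruited day 3 replicate 3. Gins1 was not called when any 1 of 16 libraries was left out, up to 0.151 without recruited day 3 replicate 2. All of these tests share the same libraries, and their direction was upward for each of the 27 genes on each later day.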

How the results depend on the processing

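Of 3014 values of single genes under the alternatives, 2739 kept their side of the threshold, 273 lost the call, 1 gained it and 1 changed direction. Direction was compared only for differences between 2 groups, not for the test of the change over days. Recruited minus resident for Mki67 on day 9, not called, ranged from -0.92 without recruited day 9 replicate 2 to 0.30 without resident day 9 replicate 2. Counts of called genes out of 45 stayed within 1.5 times under every alternative for recruited minus resident on day 3 (45 to 45 without single libraries), recruited cells against untreated cells (35 to 37, 41 to 44, 37 to 42 and 40 to 42 on days 3, 6, 9 and 12), resident day 6 minus day 3 (41 to 45) and the change over days (18 to 34). Fitted on the compared groups alone, the counts were 6 for recruited minus resident on day 9, 6 and 7 for resident days 9 and 12 against untreated, 3 for recruited day 9 minus day 3 and 1 for resident day 12 minus day 6. With library size alone they were 3 for resident day 12 against untreated, 6 for recruited day 6 and 5 for recruited day 12 minus day 3, and this scaling moved the median of all genes by up to -0.19, in recruited day 3 against untreated cells. DESeq2 gave 4 for resident day 12 against untreated and 2 for resident day 12 minus day 6, the covariate for stretches of column numbers 5 for the former, and no filter 5 for recruited day 6 minus day 3. The cause of these shifts was not tested. Chosen after the data were seen, leaving out the day 9 pair numbered 2 gave 11 for recruited day 9 minus day 3, and leaving out the 3 recruited libraries richest in resident markers gave 15 and 20 for recruited minus resident on days 9 and 12, and 3 and 3 for recruited days 9 and 12 minus day 3.

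Without single libraries the ranges were 17 to 27, 9 to 25 and 28 to 32 for recruited minus resident on days 6, 9 and 12, then 12 to 26, 17 to 29, 9 to 33 and 0 to 1 for resident days 3, 6, 9 and 12 against untreated. They were 3 to 10, 3 to 11 and 5 to 8 for recruited days 6, 9 and 12 minus day 3, and 0 to 0 for resident day 12 minus day 6. The replicate block within days raised the population counts as the report gives and brought the day 6 difference of Mki67 past the threshold. Between resident days 3 and 6, where all 3 pairs correlated, the block gave 44, as without it. For the other comparisons across days the numbers did not pair the libraries throughout, and the block gave 21, 29, 23 and 1 for resident days against untreated and 8, 5 and 8 for recruited days minus day 3. Genes near 1 CPM, such as recruited Tcf19 and Pole, rest on few reads.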
